A study of Mus musculus with 6 samples.

Results

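Aminoacyl tRNA synthetases join each amino acid to its transfer RNA and so supply the ribosome. Most cells keep separate sets of nuclear genes for this step, one for the cytosol and one for the mitochondrial matrix, where the mitochondrion's own ribosomes make a few subunits of the respiratory chain. Several cytosolic enzymes are held together in a multisynthetase complex, and the transcription factor ATF4 is known to raise many of the cytosolic synthetase genes together with amino acid transporters and synthesis enzymes when amino acids run short or the endoplasmic reticulum is stressed.

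The genes described here are 35 of the 35127 mouse genes with deposited values, chosen by name. Names ending in 2 (16 genes, such as Aars2) are taken as mitochondrial and the other 19 as cytosolic or dual. Gars and Kars are the known dual genes, whose products serve both compartments. All 35 were found in the files and all passed the filter on low counts, with between 69 reads (Ears2) and 26798 reads (Lars2) in a library.

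RNA was sequenced from 3 samples of astrocytes isolated from small cell lung cancer (SCLC) allografts in the brain, called tumour libraries 1 to 3, and from 3 samples of astrocytes isolated after a sham injection into the brain, called sham libraries 1 to 3. Small cell lung cancer is an aggressive lung tumour of neuroendocrine type, and an allograft is a graft of cells from the same species, so tumour and host RNA are both mouse. The sources used here do not give the strain, age, tumour line, time after injection or method of isolating the astrocytes, nor the animal or culture behind each library. Each p-value thus rests on the spread among these 6 libraries alone, and that spread may be technical.

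The libraries held 24524764 to 25800897 estimated reads in the tumour group and 22133723 to 23328811 in the sham group. The 3 tumour libraries lay close to each other, as did sham 1 and sham 2, with root mean square log2 differences of 0.322 to 0.352, whereas sham 3 differed from sham 1 and sham 2 by 0.795 to 0.802, more than the tumour libraries did from any sham library (0.734 to 0.749). Results are therefore given with and without sham 3. All 8 astrocyte markers checked were present, with summed levels of 2224 to 2318 CPM (read counts scaled to library size, with TMM factors) in the tumour libraries and 1956 to 3475 CPM in the sham libraries. Of these, Aldh1l1 was called higher (means of 345 CPM in tumour and 247 CPM in sham libraries, edgeR adjusted p = 0.0215). Gja1 was called lower (542 and 1041 CPM in the same order, adjusted p = 0.0268), and the others were not called. The 6 neuron markers summed to 9.6 to 11 CPM in tumour and 10.2 to 11.1 CPM in sham libraries. Among them Gad1 was called higher (6.33 and 1.94 CPM, adjusted p = 0.0019) and Tubb3 lower (2.44 and 5.01 CPM, adjusted p = 0.0172). Of 9 SCLC and epithelial markers, 5 (Neurod1, Chga, Epcam, Krt8 and Krt18) were below 1 CPM in every library, and the 9 summed to 13.8 to 16.4 CPM in tumour and 18 to 25.4 CPM in sham libraries. Of 7 microglia and macrophage markers 6 were below 1 CPM in every library. The exception, Tmem119, had 86 to 87.7 CPM in tumour and 79.6 to 110 CPM in sham libraries and was not called. Summed levels of other lists did not overlap between the groups: oligodendrocyte precursor markers had 306 to 315 CPM in tumour and 228 to 240 CPM in sham libraries, mural and fibroblast markers 534 to 542 CPM in tumour and 372 to 476 CPM in sham libraries, and oligodendrocyte markers 15.5 to 18.2 CPM in tumour and 6.9 to 11 CPM in sham libraries. The part of these differences in the results was not tested. The oligodendrocyte markers Mog and Mag were below 1 CPM in every library. So were 2 of the 4 endothelial markers, Pecam1 and Cldn5, whereas Cdh5 had 573 to 577 CPM in tumour and 497 to 595 CPM in sham libraries. The fourth, Kdr, had 4.89 to 5.06 CPM in tumour and 9.98 to 13.4 CPM in sham libraries and was called lower (adjusted p = 0.0035), and the 4 summed to 579 to 583 CPM in tumour and 507 to 609 CPM in sham libraries. In bulk RNA, fewer cells of a type and less RNA per cell cannot be told apart.

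Of the 19 cytosolic or dual genes 8 rose (Cars, Eprs, Sars, Nars, Iars, Yars, Aars and Lars), 0 fell and 11 were not called (quasi-likelihood test in edgeR, p adjusted by Benjamini-Hochberg over 14359 tested genes, threshold 0.05). Across all tested genes 10.5% were called higher and 10.4% lower (20.9% in either direction), against 42.1% of the cytosolic genes called higher. Of the 16 mitochondrial genes 0 rose and 2 fell (Rars2 and Cars2), which is 12.5%, near the background. The median log2 fold change was 0.30 over the cytosolic genes, -0.08 over the mitochondrial genes and -0.02 over all tested genes. With effective length offsets in the fit the cytosolic median was 0.18. The difference between the classes is a description and was not tested as such.

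**Figure D1:**
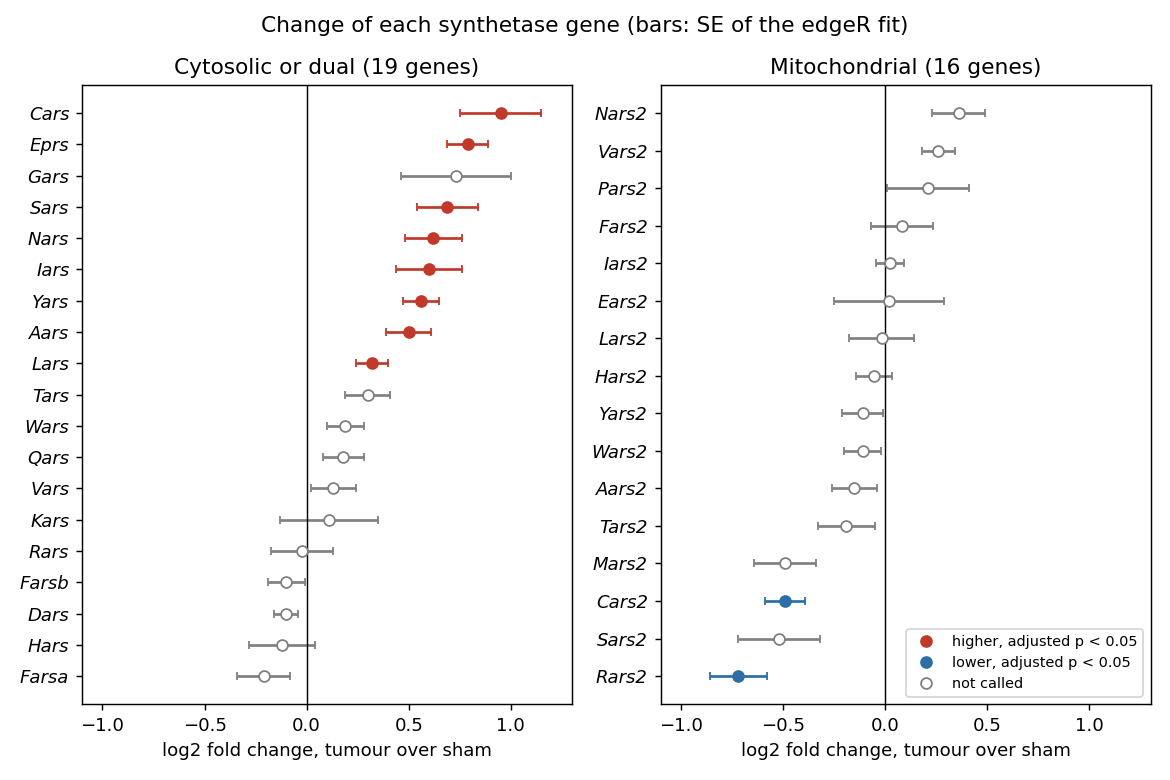
Log2 fold change of tumour over sham for each of the 35 genes, with the SE of the edgeR fit as bars and 1 panel per class. Filled red points are genes called higher, filled blue points genes called lower and open points genes not called; 8 cytosolic genes are filled red and 2 mitochondrial genes filled blue.

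Eprs was called in every fit that left out 1 library. It encodes the bifunctional enzyme that charges the tRNAs of glutamate and proline and is part of the multisynthetase complex. It had 244, 239 and 239 CPM in tumour libraries 1 to 3, against 125, 133 and 158 CPM in sham libraries 1 to 3. Every tumour library lay above every sham library, and the log2 fold change was 0.79 (SE 0.10, adjusted p = 0.00409). Iars, which charges isoleucine tRNA in the same complex, had 98.2, 92.5 and 96.8 CPM in the tumour libraries, against 50, 60.6 and 78.6 CPM in the sham libraries. The groups did not overlap (log2 fold change 0.60, SE 0.16, adjusted p = 0.0404). Lars, the leucine enzyme of the complex, which is also known as a leucine sensor for mTORC1, had 104, 105 and 104 CPM in the tumour libraries, against 82, 76.4 and 92.8 CPM in the sham libraries. Its rise was the smallest of those called (0.32, SE 0.08, adjusted p = 0.0388), and the call was lost with effective length offsets (adjusted p = 0.0659).

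The other complex members among the 35 genes did not pass the test. Qars, the glutamine enzyme, averaged 115 ± 4.66 CPM in tumour and 101 ± 13.9 CPM in sham libraries (SD, n = 3 each). Kars, the lysine enzyme, averaged 75.2 ± 0.958 CPM in tumour and 69.6 ± 25.8 CPM in sham libraries, where sham 3 alone stood at 99.2 CPM, above every tumour library. Rars, the arginine enzyme, averaged 56.4 ± 2.99 CPM in tumour and 57.3 ± 12 CPM in sham libraries. Dars, the aspartate enzyme, had 102 to 104 CPM in the tumour libraries and 106 to 114 CPM in the sham libraries; every tumour library lay below every sham library, but the change of -0.10 (SE 0.06) had an adjusted p of 0.251. So 3 of the 7 complex members among the 35 genes rose, as did 5 of the 12 cytosolic genes outside the complex; Mars, a complex member that is not among the 35, also rose and is described with the related genes. The 3 scaffold genes of the complex, Aimp1, Aimp2 and Eef1e1, had log2 fold changes between -0.02 and 0.08 and none was called.

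Among the enzymes outside the complex, Cars, the cysteine enzyme, had the largest change. It had 60.8, 62.5 and 60.3 CPM in the tumour libraries, against 27.2, 25.3 and 42.7 CPM in the sham libraries, a 1.93-fold higher level (log2 fold change 0.95, SE 0.20, adjusted p = 0.0197). Sars, the serine enzyme, had 193, 182 and 191 CPM in the tumour libraries, against 102, 103 and 147 CPM in the sham libraries (0.69, SE 0.15, adjusted p = 0.0233). In both genes the groups did not overlap and sham 3 was the sham library nearest to the tumour level. Nars, the asparagine enzyme, had 163, 155 and 154 CPM in the tumour libraries, against 88.9, 93.6 and 126 CPM in the sham libraries (0.62, SE 0.14, adjusted p = 0.0236). Yars, the tyrosine enzyme, had 92.6, 95.3 and 92 CPM in the tumour libraries, against 59.4, 58.9 and 71.7 CPM in the sham libraries (0.56, SE 0.09, adjusted p = 0.00881). The same order held for both, with no overlap and sham 3 the highest sham library. Aars, the alanine enzyme, had 192, 187 and 191 CPM in the tumour libraries, against 127, 119 and 157 CPM in the sham libraries (0.50, SE 0.11, adjusted p = 0.0238).

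Gars, the glycine enzyme, which serves both compartments, had a log2 fold change of 0.73 but did not pass the test (SE 0.27, adjusted p = 0.107). It had 133, 121 and 129 CPM in the tumour libraries, against 54.3, 61.8 and 114 CPM in the sham libraries. The groups did not overlap, but sham 3 lay close below the tumour libraries, far from the other sham libraries. Tars, the threonine enzyme, had 62.5, 58.2 and 64.5 CPM in the tumour libraries and 45.8, 46.1 and 58.6 CPM in the sham libraries, with sham 3 just above tumour 2 (0.30, adjusted p = 0.104; 0.074 with effective length offsets). Wars, the tryptophan enzyme and a known interferon-induced gene, averaged 67.1 ± 2.19 CPM in tumour and 58.7 ± 6.66 CPM in sham libraries (SD, n = 3 each; adjusted p = 0.194). Vars, the valine enzyme, averaged 74.5 ± 1.5 CPM in tumour and 68.1 ± 10.6 CPM in sham libraries, and its log2 fold change of 0.13 turned to -0.038 with effective length offsets. Hars, the histidine enzyme, averaged 58.1 ± 2.37 CPM in tumour and 63 ± 14.6 CPM in sham libraries. Both subunits of the phenylalanine enzyme had fold changes just below 0, Farsa with -0.21 (SE 0.13) and Farsb with -0.10 (SE 0.09).

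**Figure D2:**
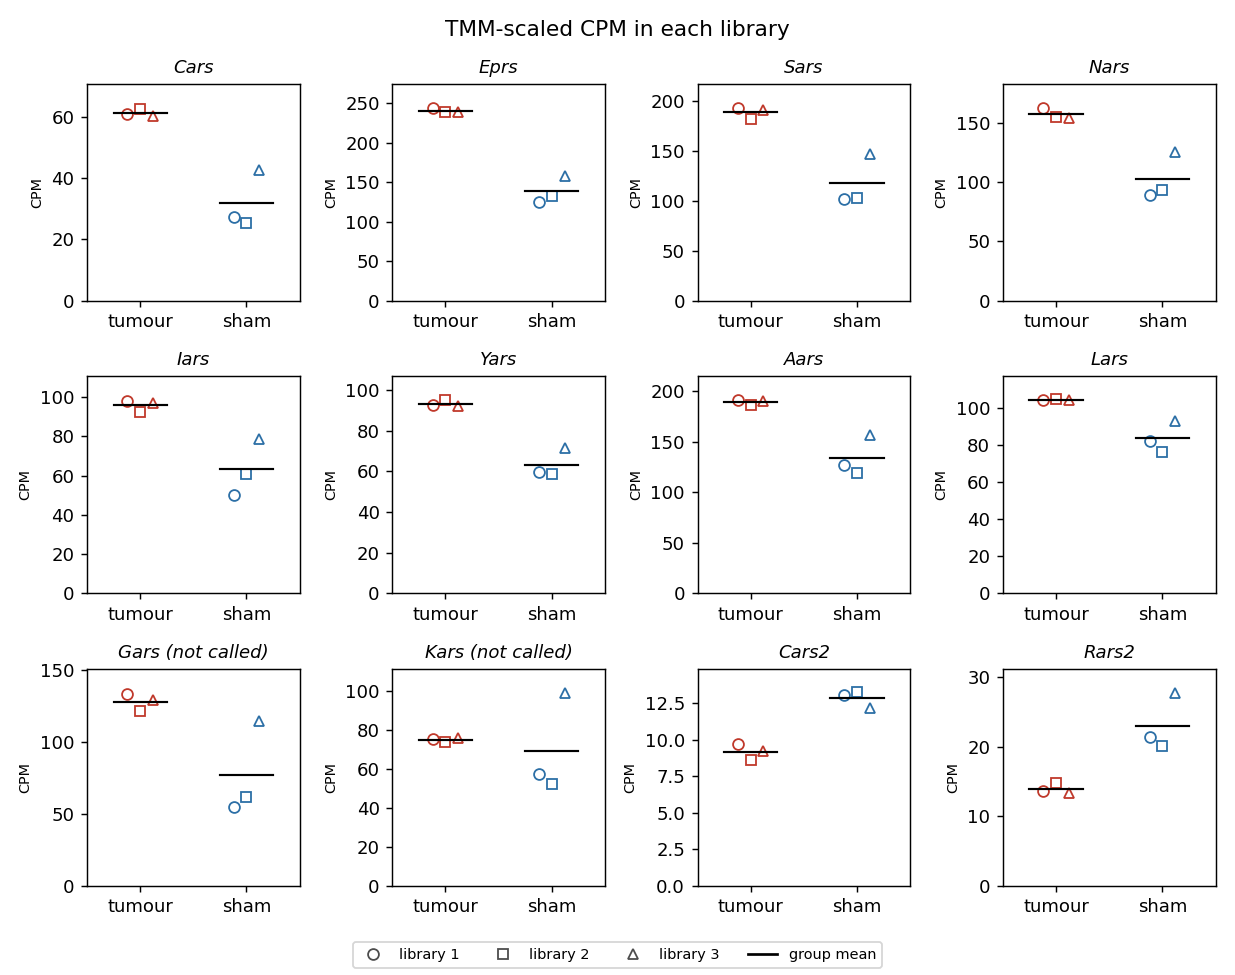
TMM-scaled CPM in each library for the 8 cytosolic genes called higher, for the dual genes Gars and Kars, which were not called, and for Cars2 and Rars2, which were called lower. Points are single libraries (circle 1, square 2, triangle 3), lines are group means, and in the cytosolic panels the sham triangle is the highest sham point.

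Sham 3 was the highest sham library for nearly all cytosolic genes. It lay above both other sham libraries in 18 of the 19 cytosolic genes, all but Dars, against 43.8% of all tested genes, and its median ratio to their mean was 1.3. For the mitochondrial genes it lay above both in 9 of 16, with a median ratio of 1.09. Against sham 3 alone, the tumour means of the 8 called genes were 1.12-fold (Lars) to 1.52-fold (Eprs) higher. By contrast, Hars, Farsa, Kars and Rars had tumour means 0.726 to 0.793 times the level of sham 3. For Farsb, Vars, Dars and Qars they were 0.869 to 0.98 times that level. The median log2 ratio of tumour mean to sham 3 (0.5 CPM added to each) was 0.08 over the cytosolic genes. It was -0.15 over the mitochondrial genes and 0.01 over all tested genes. Without sham 3 the fit called 15 cytosolic genes higher and 1 lower (Dars), and 2 mitochondrial genes higher and 4 lower, but it called 29.1% of all genes higher and 28.6% lower. Its cytosolic median was 0.42 and its mitochondrial median -0.09.

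Leaving out 1 library other than sham 3 ended most calls, while the fold changes of the 8 called genes kept their sign. Over all tested genes the number called higher also fell in those fits, from 1506 to between 536 and 850. Yars was called without tumour 3, sham 1, sham 2 or sham 3, and missed the threshold without tumour 1 or tumour 2 (adjusted p up to 0.0535). The calls of Cars, Sars, Nars, Iars, Aars and Lars were lost without any 1 library other than sham 3, with adjusted p between 0.058 (Cars) and 0.137 (Iars). Their log2 fold changes in those fits were 0.80 to 0.96 for Cars, 0.59 to 0.71 for Sars, 0.52 to 0.63 for Nars, 0.46 to 0.63 for Iars, 0.41 to 0.51 for Aars and 0.25 to 0.32 for Lars. With the near libraries summed, 1 tumour value stood against 2 sham values. A test on so few values can hardly call any gene, so nothing about single genes is read from its calls. In the edgeR fit the log2 fold changes of the 8 called genes were then 0.27 (Lars) to 0.83 (Cars). The class medians were 0.24 for the cytosolic and -0.099 for the mitochondrial genes.

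By simple order of the libraries, every tumour library lay above every sham library in 10 of the 19 cytosolic genes (the 8 called, Gars and Wars), where 22.2% of all tested genes did so. The opposite held for 1 cytosolic gene, Dars, and 21.9% of all tested genes. Among the 16 mitochondrial genes the tumour libraries lay above in 2 (Nars2 and Vars2) and below in 5 (Cars2, Mars2, Rars2, Sars2 and Yars2).

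Among the mitochondrial enzymes 2 passed the test. Rars2, the mitochondrial arginine enzyme, had 13.7, 14.8 and 13.3 CPM in the tumour libraries, against 21.4, 20.1 and 27.7 CPM in the sham libraries. It fell by 0.72 on the log2 scale (SE 0.14, adjusted p = 0.0156), and here sham 3 was the sham library farthest from the tumour level. Cars2, the mitochondrial cysteine enzyme, which is also known to make cysteine persulfides, had 9.69, 8.59 and 9.24 CPM in the tumour libraries, against 13.1, 13.3 and 12.2 CPM in the sham libraries. It fell by 0.49 (SE 0.10, adjusted p = 0.0215), a call lost with effective length offsets (adjusted p = 0.0698). Of their cytosolic counterparts, Cars rose and Rars had a log2 fold change of -0.02. The call of Rars2 was lost without any 1 of the tumour libraries (highest adjusted p 0.0791), and that of Cars2 without any 1 library other than sham 3 (0.0673 to 0.0994).

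Among the mitochondrial genes not called, Mars2, the methionine enzyme and the least abundant member in TPM, had 8.53, 8.3 and 6.64 CPM in the tumour libraries, against 11, 11.9 and 9.94 CPM in the sham libraries (adjusted p = 0.0595). Its groups did not overlap. Sars2, the serine enzyme, averaged 4.63 ± 0.850 CPM in tumour and 6.62 ± 0.845 CPM in sham libraries (SD, n = 3 each; adjusted p = 0.111). Nars2, the asparagine enzyme, averaged 12 ± 0.914 CPM in tumour and 9.33 ± 0.959 CPM in sham libraries (adjusted p = 0.0897), and Vars2, the valine enzyme, 36.6 ± 1.26 CPM in tumour and 30.6 ± 2.32 CPM in sham libraries (log2 fold change 0.26, adjusted p = 0.062). The direction of Vars2 turned with effective length offsets (-0.028, adjusted p = 0.927), and in TPM it averaged 15.9 ± 1.74 for tumour and 15.8 ± 2.92 for sham libraries. The remaining 10 (Aars2, Ears2, Fars2, Hars2, Iars2, Lars2, Pars2, Tars2, Wars2 and Yars2) had log2 fold changes between -0.19 (Tars2) and 0.21 (Pars2). The share of reads on the genes of the mitochondrial genome itself was 4.05% to 4.23% in the tumour libraries and 6.66%, 6.2% and 4.2% in sham 1 to 3; its part in these values was not tested.

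Levels of different genes were compared in TPM, a unit that also accounts for transcript length. Cytosolic genes ranged from 23.2 TPM (Tars) to 133 TPM (Sars) in the tumour means and from 19.1 TPM (Cars) to 114 TPM (Qars) in the sham means. Mitochondrial genes other than Lars2 ranged from 1.32 TPM (Mars2) to 29.3 TPM (Iars2) in the tumour means and from 1.80 TPM (Mars2) to 28.1 TPM (Iars2) in the sham means. In the tumour libraries the order at the top was Sars (133 ± 6.91), Qars (131 ± 14.2), Nars (89.7 ± 3.72), Dars (86.9 ± 1.17), Gars (78.6 ± 4.82) and Eprs (66.4 ± 1.13 TPM; SD, n = 3). Sars and Qars overlapped, as did Nars and Dars. In the sham libraries Qars (114 ± 15.7) stood first, followed by Dars (89.8 ± 0.722) and Sars (78.5 ± 20.5 TPM). Of the Qars level, 29.1% to 36.7% was listed for a transcript of 544 bases (Qars-233).

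**Figure D3:**
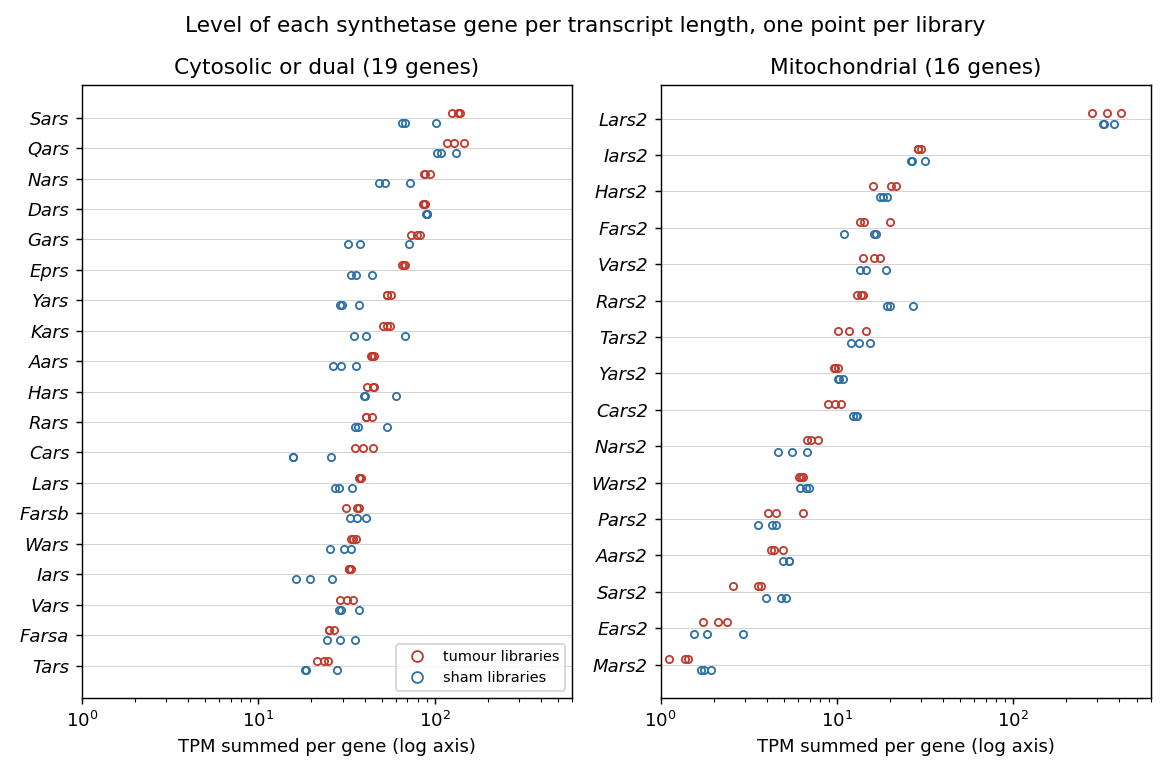
TPM summed per gene in each library, on a log axis, with tumour libraries in red above sham libraries in blue and 1 panel per class. Cytosolic genes lie between 15.7 and 146 TPM, and mitochondrial genes between 1.12 and 31.5 TPM, apart from Lars2 at 279 to 408 TPM.

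Lars2, the mitochondrial leucine enzyme, was listed as the most abundant synthetase. It had 740, 1102 and 905 CPM in tumour libraries 1 to 3 and 906, 879 and 993 CPM in sham libraries 1 to 3. The tumour libraries spanned the whole range of the sham libraries, with SDs of 181 CPM for tumour and 59.3 CPM for sham libraries. Of its TPM, 92.8% to 96.2% was listed for Lars2-209, a transcript annotated for nonsense-mediated decay, and 3.6% to 7.21% for the main protein-coding transcript. These transcripts share nearly all their sequence: of the 3726 stretches of 31 bases in Lars2-209 all but 35 occur in the coding one. The coding transcript had 10.1, 16 and 15.4 TPM in the tumour libraries, against 20.6, 19.5 and 26.9 TPM in the sham libraries, with every tumour library below every sham library. Lars2 lies on chromosome 9 from 123366927 to 123462666 on the plus strand.

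Summed over the class, the cytosolic genes had 1979, 1908 and 1931 CPM in the tumour libraries, against 1321, 1333 and 1751 CPM in the sham libraries, a ratio of group means of 1.32. The mitochondrial genes without Lars2 had 288, 276 and 285 CPM in the tumour libraries, against 293, 288 and 308 CPM in the sham libraries, a ratio of 0.957. With Lars2 the mitochondrial sum was 1028 to 1378 CPM in tumour and 1167 to 1301 CPM in sham libraries.

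The cytosolic and mitochondrial genes of one amino acid were set against each other in 14 pairs, as the ratio of their TPM within each library. In 10 pairs the ratio was higher in every tumour library than in every sham library, in 0 it was lower and in 4 (Hars, Tars, Vars and Farsa with their counterparts) the groups overlapped. The gap was narrow in some of the 10. For Lars to Lars2 the lowest tumour ratio was 0.0918 and the highest sham ratio 0.091. For Nars to Nars2 these were 11.2 and 10.6, and for Wars to Wars2 5.34 and 4.99. For single genes, every tumour library lay above every sham library in 22.2% of all tested genes; the share among ratios of other gene pairs was not computed, so how far 10 of 14 departs from it is not known. The Cars to Cars2 ratio was 4.56, 4.4 and 3.35 in the tumour libraries, against 1.21 to 2 in the sham libraries. The Sars to Sars2 ratio was 38.7, 48.6 and 36.6 in the tumour libraries, against 13.6, 17.2 and 19.8 in the sham libraries. Iars and Iars2 changed places: the ratio was 1.15, 1.13 and 1.09 in the tumour libraries, against 0.614, 0.744 and 0.832 in the sham libraries. For Rars and Rars2 the ratio was 3.21, 2.91 and 3.14 in the tumour libraries and 1.84, 1.83 and 1.98 in the sham libraries, while Rars itself averaged 41.9 ± 1.8 TPM in the tumour and 41.8 ± 10 TPM in the sham libraries. In 12 of the 14 pairs the cytosolic gene had the higher TPM in all 6 libraries, the exceptions being Iars and Lars. The ratios restate the levels of the members, so no test was made of them.

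**Figure D4:**
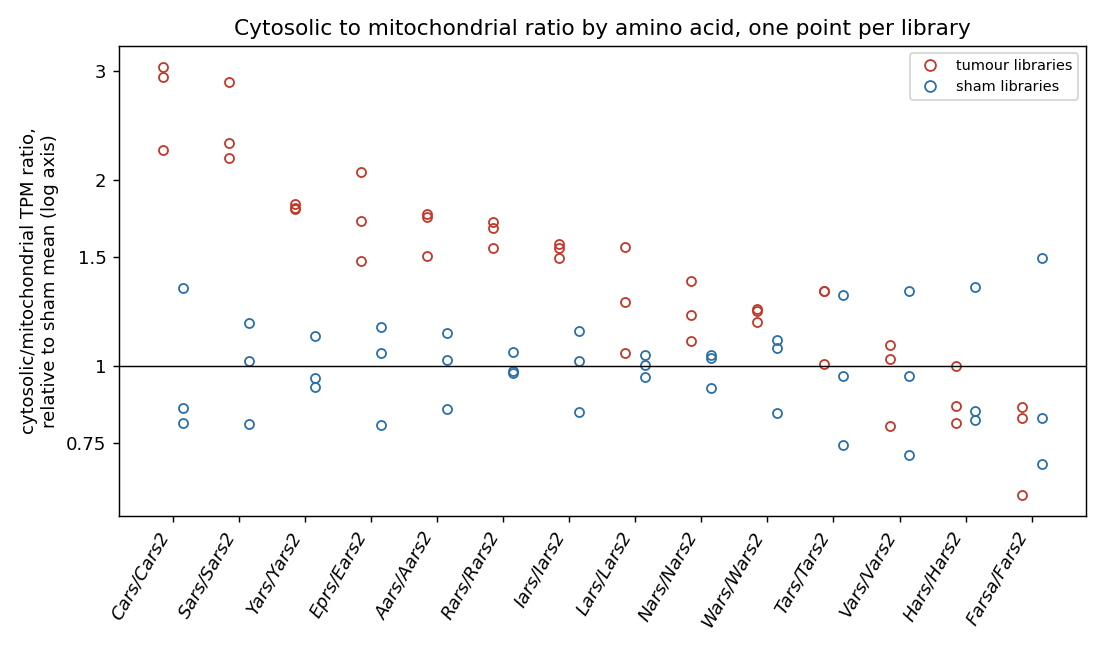
Ratio of cytosolic to mitochondrial TPM for 14 pairs, divided by the mean ratio of the sham libraries and drawn on a log axis, with tumour libraries (red) left of sham libraries (blue). The red points lie above all blue points in 10 pairs and overlap them for Tars, Vars, Hars and Farsa.

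Promoter windows were searched because many ATF4 target genes carry a known common element. The C/EBP-ATF response element, to which ATF4 binds with C/EBP partners, has the core TGATGNAA, and this core was searched on both strands in windows from 250 bases before to 50 bases after the annotated start (RefSeq, GRCm38.p6). A window was present for 12 cytosolic and 14 mitochondrial genes. The core was found in 5 of the 12 cytosolic windows (Aars, Gars, Iars, Tars and Yars) and in 0 of the 14 mitochondrial windows, against 3.97% of all 32851 windows. It occurred in 3 of the 5 windows of cytosolic genes called higher and in 2 of the 7 of those not called, which were Gars and Tars. The stretches around each match are given 5′ to 3′ on the strand of the gene, with the match in capitals; in Yars the core reads along the gene's strand and in the others along the opposite strand.
Aars, chr8:111033710-111033878, plus strand: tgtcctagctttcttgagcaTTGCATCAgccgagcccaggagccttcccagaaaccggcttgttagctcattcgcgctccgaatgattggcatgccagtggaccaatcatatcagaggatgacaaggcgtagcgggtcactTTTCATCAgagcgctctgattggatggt
Gars, chr6:55037951-55037998, plus strand: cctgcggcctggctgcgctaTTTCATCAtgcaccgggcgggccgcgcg
Iars, chr13:49682117-49682164, plus strand: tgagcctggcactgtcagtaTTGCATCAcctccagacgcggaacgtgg
Tars, chr15:11399646-11399693, minus strand: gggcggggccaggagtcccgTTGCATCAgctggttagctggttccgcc
Yars, chr4:129189886-129189933, plus strand: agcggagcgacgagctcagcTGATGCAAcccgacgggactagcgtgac
In Aars the core matched at 2 places, beginning 112 bases before and 9 bases after the annotated start. The matches began 30 bases before the start in Gars, 15 before in Tars, 7 after in Iars and 3 after in Yars. Of these 5 genes, Aars, Iars and Yars rose and Gars and Tars had positive fold changes that did not pass the test. A match of letters shows neither binding nor a cause of these levels, and a window without one only lacks these letters.

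Of a list of 28 genes of the ATF4 and amino acid response, 17 rose and 0 fell (60.7% higher, against 10.5% of all tested genes), with a median log2 fold change of 0.93. Trib3, a pseudokinase gene that ATF4 and CHOP induce, averaged 26.5 ± 1.58 CPM in tumour and 1.92 ± 0.268 CPM in sham libraries (SD, n = 3 each; log2 fold change 3.77, SE 0.14). Mthfd2, a mitochondrial folate enzyme gene, averaged 46.6 ± 1.88 and 13.6 ± 0.587 CPM (1.78, SE 0.07), and Chac1, whose product breaks down glutathione, 22.9 ± 2.59 and 3.17 ± 0.488 CPM (2.85, SE 0.16) in the same order. Stc2, which encodes a secreted stanniocalcin, averaged 14.4 ± 1.09 CPM in tumour and 1.92 ± 0.480 CPM in sham libraries (2.90, SE 0.20). The highest adjusted p of these 4 was 0.00064, and it was 0.00966 with any 1 library left out. Without sham 3, 23 genes of the list were called higher and 2 lower, in a fit that called 29.1% of all genes higher and 28.6% lower. Without any 1 of the other libraries 13 or 14 of the list were higher and 0 lower. Those fits called between 536 and 850 genes higher in all, against 1506 with all 6 libraries. The core searched in the promoters was found in 7 of the 25 windows of this list. Of the 4 eIF2 kinases, which raise ATF4 translation, 0 rose and 1 fell, Eif2ak2, the kinase that senses double-stranded RNA (70.5 ± 3.15 CPM in tumour and 86.2 ± 5.91 CPM in sham libraries, adjusted p = 0.0355). That call was lost without any 1 library other than sham 3 (adjusted p 0.0802 to 0.144).

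Synthetase genes outside the 35 were also looked at. Mars, the cytosolic methionine enzyme and a further complex member, rose to 97.2 ± 3.10 CPM in the tumour libraries, against 62 ± 5.35 CPM in the sham libraries (a log2 change of 0.65, SE 0.08, adjusted p = 0.00357), while the threonine enzyme gene Tarsl2 was not called. Of 7 genes for editing of mischarged tRNA, for peptidyl-tRNA and for tRNA export, Xpot, the exporter of tRNA from the nucleus, rose (103 ± 5.35 CPM in tumour and 70.8 ± 1.58 CPM in sham libraries, adjusted p = 0.0031). Ankrd16, a cofactor of alanine proofreading, fell (12.7 ± 0.834 and 17.3 ± 0.621 CPM in the same order, adjusted p = 0.0206). These calls are 14.3% of that list in each direction, against 10.5% of all tested genes called higher and 10.4% lower. Of 18 genes for handling tRNA in mitochondria 0 rose and 1 fell (5.56%, against 10.4% of all tested genes called lower). It was Qrsl1, a subunit of the enzyme that converts the mitochondrial glutamine tRNA after Ears2 has charged it with glutamate. Qrsl1 averaged 4.11 ± 0.242 CPM in tumour and 7.34 ± 1.41 CPM in sham libraries (edgeR adjusted p = 0.0247). Of 9 mitochondrial translation factor genes none was called, where 20.9% of all tested genes were called in either direction. The most abundant, Tufm and Gfm1, had log2 fold changes of -0.14 and -0.15. Mars and Xpot were called whichever 1 library was left out, whereas Ankrd16 and Qrsl1 were called only without sham 3 (adjusted p otherwise 0.0585 to 0.107).

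Shares of the annotated transcripts of a gene were also compared. Of 63 member transcripts compared, from 22 genes, the tumour libraries lay on one side of the sham libraries in 11, which is 17.5%, against 16.4% of such transcripts of all genes. One was the protein-coding transcript that holds most of the level of Yars, with 76.5%, 78.6% and 69.7% of the gene's TPM in the tumour libraries, against 89.4%, 88.2% and 88.5% in the sham libraries. For the main protein-coding transcript of Tars the shares were 94.8%, 94.5% and 90.8% in the tumour libraries and 84.2%, 84.8% and 73.6% in the sham libraries.

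Part of some genes' sequence cannot be assigned with certainty. The shares of 31-base stretches also found in listed transcripts of another gene were highest for Iars2 (22.5%, mostly Rab3gap2 on the opposite strand), Iars (14.7%, mostly Gm4849) and Aars (13.9%, mostly Exosc6). Hars and Hars2 overlap at their starts on opposite strands of chromosome 18 and shared 165 such stretches. In the GRCm38 (mm10) build, Eprs lies on chromosome 1 from 185363044 to 185428360 and Yars on chromosome 4 from 129189760 to 129219607, both on the plus strand. Cars lies on chromosome 7 from 143557230 to 143600090 and Cars2 on chromosome 8 from 11513977 to 11550783, both on the minus strand, and Rars2 on chromosome 4 from 34614957 to 34660167 on the plus strand.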

How the data were processed

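Each deposited table lists estimated counts, TPM, length and effective length for every transcript, per the file headers. The submitters' processing notes name mm10, Salmon 0.8.2 and DESeq2 1.28.1. TPM, as deposited by the authors for transcripts, was summed per gene to compare genes. The sources used here do not give the library kit, strandedness or Salmon's settings, so overlapping genes on opposite strands cannot be separated. Of 113116 transcripts 112841 were matched without version to GENCODE M21 (GRCm38). Counts were summed per gene and rounded.

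Genes were tested with edgeR 4.0.16 (R 4.3.3), using TMM, filterByExpr (minimum count 10, minimum total 15), a robust quasi-likelihood fit of group over all 6 samples and Benjamini-Hochberg adjustment. An SE here is the size of the log2 fold change over the root of its F statistic, and so carries no information beyond the test. Alternatives were DESeq2 1.42.0, limma-voom (limma 3.58.1), RLE factors, no filter, effective length offsets, a replicate block, each library left out and near libraries summed, the last by 3 tools (limma-voom and DESeq2 on summed libraries were added after the data were seen). The tests were tried on simulated data. Transcript shares were compared for genes of at least 5 TPM and transcripts with 5% to 95% of their gene. Intervals are SDs over libraries and include counting error.

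The members and lists were chosen with earlier results of these data known. All 35 members are described; of each list up to 4 called genes with the smallest p are named, or the 2 most abundant, and genes named to complete a count were chosen after their values were seen. A gene of the list of other synthetases is not reported here.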

Additional observations from a re-analysis of the deposited data

How the results depend on the processing

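With DESeq2, limma-voom, RLE factors or no filter the counts of called synthetases stayed within 1.5 times those above (7 to 9 cytosolic genes higher, 2 or 3 mitochondrial genes lower). Effective length offsets left 1 mitochondrial gene lower (Rars2) and 968 genes lower in all. No sign that the replicate numbers pair the samples was seen, which does not exclude pairing. Correlations of deviations were 0.00785, -0.0194 and -0.0008 between same-numbered libraries and -0.0123 to 0.0138 between the others. With the replicate block 4 cytosolic genes were higher and 0 mitochondrial genes lower, with 829 genes higher and 607 lower in all. Leaving out 1 library gave 1 to 15 cytosolic genes higher and 0 to 1 lower, 0 to 2 mitochondrial genes higher and 0 to 4 lower, and 536 to 4250 genes higher and 355 to 4179 lower in all; the upper values are without sham 3. With near libraries summed edgeR and limma-voom called 0 genes (573 and 770 at an unadjusted p below 0.05) and DESeq2 73 higher and 11 lower, with 0 synthetases by any of the 3 tools.

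Signs changed for some members, none of them called with all 6 libraries. With effective length offsets the log2 fold changes were -0.038 for Vars, -0.049 for Ears2, 0.038 for Hars2 and -0.028 for Vars2, whose value without offsets was 0.26 with groups that did not overlap. With near libraries summed they were -0.035 for Kars (edgeR and DESeq2), -0.087, -0.0019 and -0.085 for Ears2 and -0.0063, -0.01 and -0.0049 for Iars2 (edgeR, limma-voom and DESeq2). Leaving out 1 library gave ranges of -0.064 to 0.46 for Kars, -0.19 to 0.24 for Ears2, -0.014 to 0.082 for Iars2, -0.028 to 0.19 for Fars2, -0.13 to 0.16 for Rars, -0.23 to 0.089 for Hars, -0.11 to 0.023 for Hars2 and -0.17 to 0.12 for Lars2. Rars, at 0.16 without sham 3, was then called (adjusted p = 0.0187). The cause was not tested. The summed cytosolic level was 1.29-fold higher in TPM, and the mitochondrial one without Lars2 0.938 times the sham level. Ears2, Pars2 and Sars2, at 69 to 159 reads, have the fewest reads of the members and so the largest relative counting error. The SE was also large for Gars (0.27) and Kars (0.24), which have many more reads.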

Other observations

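Sham 3 differed from the other sham libraries in opposite directions for the synthetases and for some genes of the ATF4 list. Atf4 itself had 232, 233 and 241 CPM in tumour libraries 1 to 3, against 131, 126 and 93.8 CPM in sham libraries 1 to 3, so sham 3 was the sham library farthest from the tumour level. Ddit3, which encodes CHOP, had 36, 31.8 and 35.6 CPM in the tumour libraries, against 13.7, 14.5 and 11.3 CPM in the sham libraries. By contrast Asns, the asparagine synthesis enzyme, had 50.8, 52.5 and 48.5 CPM in the tumour libraries, against 13.9, 14.6 and 28.8 CPM in the sham libraries, and Aldh18a1, a proline synthesis gene, had 65.2, 65.9 and 65.4 CPM in the tumour libraries, against 16.5, 17.2 and 45.7 CPM in the sham libraries. In these, as in 18 of 19 cytosolic synthetases, sham 3 was the highest sham library. Of the 28 genes of the list sham 3 lay above both other sham libraries in 15 (53.6%) and below both in 10 (35.7%). Over all tested genes these shares were 43.8% and 44.4%, so genes on both sides are common in any list. Larger gaps were seen for Atf3, a stress-induced transcription factor gene, with 37.9, 38.7 and 39 CPM in the tumour libraries, against 84, 88.2 and 1.18 CPM in the sham libraries, and for Ppp1r15a, whose product guides eIF2 dephosphorylation, with 236, 233 and 244 CPM in the tumour libraries, against 206, 214 and 27.8 CPM in the sham libraries. Neither was called, and the sham libraries lay on both sides of the tumour libraries for Atf3. These genes were picked after their values were seen.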
